A study of Mus musculus with 2 samples.

Results

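The genes described here are 10 immediate early transcription factor genes, Fos, Fosb, Jun, Junb, Jund, Atf3, Egr1, Egr3, Nr4a1 and Ier2, chosen by symbol and found once each among the 32285 mouse genes of the deposited matrices. Immediate early genes are transcribed within minutes of a stimulus, without new protein synthesis, when growth factor, cytokine or stress signals reach kinases that act on factors already bound at their promoters. Fos and Jun family proteins pair through leucine zippers to form AP-1, Egr proteins are zinc finger factors and Nr4a1 is an orphan nuclear receptor. In tissue taken apart with enzymes at body temperature the same genes are known to be induced by the handling itself, so that levels in a cell suspension may hold both the state in the tissue and a response to preparation.

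The data are droplet single-cell RNA sequencing of mouse prostate, with 1 library from normal tissue adjacent to a tumour (called healthy in the sample title) and 1 library from tumour tissue. The strain, age, genotype and tumour model are not given in the labels used here. Both tissues went through 45 min of collagenase type I at 1 mg/ml and 37 °C, then 2.5% trypsin and a 40 µm strainer. CD45+ and CD45- cells of each tissue were sorted, then put back together in 1 droplet channel, with 14 cycles of cDNA amplification. Handling was therefore described alike for both libraries, no undigested sample was measured, and a response to dissociation cannot be told apart from the state in the tissue.

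With 1 library per group there is no replicate, and no test between tumour and normal adjacent tissue was possible. Values are summed counts of unique molecular identifiers (UMIs) per 1000000 UMIs of the same cells, written CPM. They count molecules by their 3' ends and are not divided by gene length. Every interval is an exact 95% interval for counting error alone. A ratio whose interval excludes 1 says that the summed counts of the 2 libraries differ beyond counting error. The interval takes UMIs as independent and leaves out which cells were caught, so it can be too narrow where few cells hold many UMIs. It says nothing of how other animals would differ.

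The normal adjacent library held 6553 barcodes and 77855775 UMIs, and the tumour library 8237 barcodes and 92188538 UMIs, with 18 barcodes occurring in both. After removal of 344 and 469 barcodes with few genes or high mitochondrial shares, 3341 and 4144 cells passed one of 15 marker gates, each set by UMIs of marker genes per 10000 UMIs of the cell. The gates took, for example, S100a8, S100a9 and Csf3r for neutrophils, C1qa, C1qb and C1qc for macrophages, Col1a1, Dcn and Pdgfra for fibroblasts, and Krt8 and Epcam with Krt4 and Psca for luminal progenitor cells. The gate set on 5 basal markers rested mainly on the keratin Krt15 (6700 CPM in normal adjacent and 7590 in tumour tissue), with Krt5 at 116 and 347, Trp63 at 5.32 and 20.1 and the luminal keratin Krt8 at 3350 and 2810, so that its cells are called Krt15-high epithelial cells and not basal cells. None of the 10 genes was used in a gate. The cells outside every gate, or inside more than one, made up 46.2% and 46.7% and enter only the values for whole libraries. The gated cells held 36.5% and 39.1% of the UMIs of all cells kept. Gates held from 57 cells (type 1 dendritic cells, normal adjacent) to 1052 cells (neutrophils, tumour), and 2.64% to 38.7% of a gate's cells lay within 1.5-fold of its minimum.

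The sequence just upstream of 4 of the genes is shown as examples. Of these, Fos, Jun and Atf3 were highest in stromal or epithelial cells and Junb in neutrophils and lymphocytes. Each line gives the 250 bases before the RefSeq start site in GRCm38.p6, 5′ to 3′ along the gene. Capitals mark every match, on either strand, to TGACG, the core of the cyclic AMP response element.
Fos, chr12:85473640-85473889, plus strand: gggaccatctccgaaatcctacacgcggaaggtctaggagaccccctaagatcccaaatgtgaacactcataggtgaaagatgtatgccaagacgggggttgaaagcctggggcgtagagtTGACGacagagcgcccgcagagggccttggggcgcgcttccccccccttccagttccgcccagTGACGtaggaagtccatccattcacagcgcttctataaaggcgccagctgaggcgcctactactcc
Jun, chr4:95052223-95052472, minus strand: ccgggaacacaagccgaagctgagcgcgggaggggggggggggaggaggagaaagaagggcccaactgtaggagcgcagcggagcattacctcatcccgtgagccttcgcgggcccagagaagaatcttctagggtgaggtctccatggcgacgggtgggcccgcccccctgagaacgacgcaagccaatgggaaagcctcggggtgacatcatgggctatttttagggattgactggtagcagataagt
Junb, chr8:84978749-84978998, minus strand: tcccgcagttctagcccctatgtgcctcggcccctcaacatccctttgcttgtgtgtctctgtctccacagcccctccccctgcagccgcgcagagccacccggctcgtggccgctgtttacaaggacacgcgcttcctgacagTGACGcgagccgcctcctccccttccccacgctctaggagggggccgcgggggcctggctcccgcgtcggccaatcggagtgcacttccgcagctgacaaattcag
Atf3, chr1:191183334-191183583, minus strand: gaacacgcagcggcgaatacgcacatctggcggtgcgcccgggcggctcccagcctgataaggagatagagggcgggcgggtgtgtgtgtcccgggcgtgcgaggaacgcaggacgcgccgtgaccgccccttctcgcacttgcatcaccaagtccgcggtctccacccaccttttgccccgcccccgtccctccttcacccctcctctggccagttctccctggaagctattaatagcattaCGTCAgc
Fos held 2 copies, with first bases at positions -129 and -66 before the start site. Junb held 1 at -106, Atf3 held 1 on the opposite strand at -7, and Jun held none. Across 32851 mouse promoter windows of the same length, 17.8% held TGACG. None of the 4 windows held the full TGACGTCA (which contains TGACG; 1.55% of all windows), the AP-1 site TGANTCA (6.75%), the Egr site GCGNGGGCG (4.7%) or the CArG box, the site of serum response factor (1.47%). RefSeq windows were matched for 7 of the 10 genes. Of those not printed, Nr4a1 held 4 copies of TGACG and 1 of GCGNGGGCG, Fosb held 1 of each and Jund held none of these motifs. All 250 bases of the Nr4a1 window and 73 bases of the Fosb window lay inside the RefSeq span of the gene itself. A match or its absence describes these letters only.

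Over all cells kept, Junb was the most abundant of the 10 genes, at 3320 CPM in the normal adjacent and 2930 in the tumour library. Jund followed at 1800 and 1460, Fos at 1320 and 1300, Jun at 778 and 733, and Fosb at 729 and 853. Egr3 was the rarest, at 21.9 and 35. Together the 10 genes gave 9530 and 8940 CPM.

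Summed over the 10 genes, the level differed more between cell types than between libraries. By CPM, fibroblasts were highest, with 14900 in normal adjacent and 16300 in tumour tissue. Luminal progenitor cells (14400 and 13000), neutrophils (13100 and 13100), Krt15-high epithelial cells (13000 and 12900) and other epithelial cells (12100 and 13500) came next. Migratory dendritic cells were lowest at 4980 and 4230. At an equal depth of 1000 UMIs per cell the order at the top changed. The mean sum per cell was then 17.9 and 15.4 UMIs in luminal progenitor cells and 13.4 and 14.6 in fibroblasts. It was 14.5 and 12.4 in Krt15-high epithelial cells and 13 and 16.6 in other epithelial cells. Levels over the 15 cell types in one library followed those in the other, with Pearson correlations (log2 of CPM plus 10) from 0.89 for Nr4a1 to 0.99 for Atf3. Rank correlations ran from 0.78 for Egr1 and 0.83 for Nr4a1 to 0.97 for Fos. These points share their libraries and their free RNA, and the correlation is a description.

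**Figure D1:**
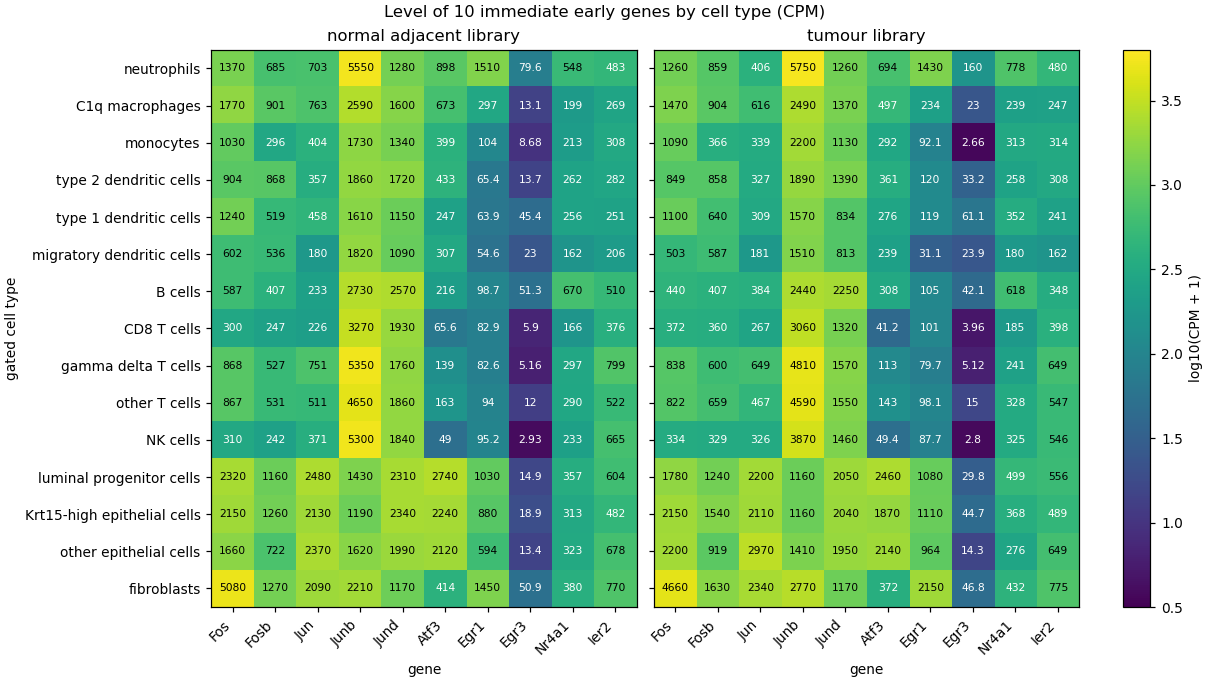
Level of each of the 10 genes (columns) in each of the 15 gated cell types (rows) in the normal adjacent library (left) and the tumour library (right), printed as CPM and coloured on a log10 scale. Fos peaks in fibroblasts (5080 and 4660), Atf3 in the epithelial gates and Junb in neutrophils and gamma delta T cells.

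Fos, the AP-1 subunit that cannot pair with itself, was highest in fibroblasts, at 5080 CPM in normal adjacent and 4660 in tumour tissue, more than in any other gate under each alternative tried. Luminal progenitor cells (2320 and 1780) and Krt15-high epithelial cells (2150 and 2150) came next in normal adjacent tissue. C1q macrophages (1770 and 1470) and other epithelial cells (1660 and 2200) followed there with overlapping intervals, then neutrophils (1370 and 1260). CD8 T cells (300 and 372) and NK cells (310 and 334) had the lowest levels and could not be separated from each other in either library. At an equal depth of 1000 UMIs per cell, 74.6% (interval 65.7 to 82.1) of normal adjacent and 82.7% (76.6 to 87.7) of tumour fibroblasts held a Fos UMI, against 17.2% and 25.2% of CD8 T cells. No gated type can be assumed to lack these genes, so the share that free RNA gives was not measured. Without thinning the shares were 86.4% and 85.5% in fibroblasts and 59.5% and 60% in CD8 T cells, where the median depth was 6641 and 6846 UMIs against 8081 and 5464 in fibroblasts.

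Fosb, the closest relative of Fos, had a flatter profile. Its 3 highest gates were fibroblasts (1270 and 1630), Krt15-high epithelial cells (1260 and 1540) and luminal progenitor cells (1160 and 1240), and the intervals of fibroblasts and Krt15-high cells overlapped in both libraries. Its lowest was NK cells, at 242 and 329.

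Jun, the AP-1 subunit that can pair with itself or with Fos proteins, split the non-immune from the immune gates. Epithelial gates and fibroblasts lay between 2090 and 2480 in normal adjacent and between 2110 and 2970 in tumour tissue. The highest immune value was 763, in normal adjacent C1q macrophages. Migratory dendritic cells were lowest, at 180 and 181.

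Junb, a Jun protein with weaker activation of many AP-1 sites, ran the other way. Neutrophils held 5550 and 5750 CPM, gamma delta T cells 5350 and 4810, NK cells 5300 and 3870 and other T cells 4650 and 4590. Luminal progenitor cells (1430 and 1160) and Krt15-high epithelial cells (1190 and 1160) were lowest. Over the 30 values of 15 cell types in 2 libraries, Junb correlated negatively with Fos (-0.39), Fosb (-0.42), Jun (-0.35) and Atf3 (-0.62), while Fos correlated with Fosb at 0.85 and with Jun at 0.82.

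Jund, the most steadily expressed Jun gene in many tissues, had the narrowest range. B cells were highest at 2570 and 2250 and migratory dendritic cells lowest at 1090 and 813. Its intervals for 6 gates in the normal adjacent library, from other epithelial cells (1990) to type 2 dendritic cells (1720), each overlapped the next in order.

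Atf3, a stress-induced partner and repressor within the AP-1 family, differed widely between gates. It reached 2740 and 2460 CPM in luminal progenitor cells, 2240 and 1870 in Krt15-high epithelial cells and 2120 and 2140 in other epithelial cells. Neutrophils held 898 and 694. NK cells held 49 and 49.4, and CD8 T cells 65.6 and 41.2. At 1000 UMIs per cell, 76.3% and 75.5% of luminal progenitor cells held an Atf3 UMI (90.9% and 91.9% without thinning), against 7.34% and 3.11% of NK cells (20.1% and 23%). Median depth was 18728 and 22419 UMIs in luminal progenitor cells and 5764 and 5250 in NK cells. NK cells carried 116 and 110 CPM of epithelial markers, and the part of free RNA in their few Atf3 UMIs was not tested.

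Egr1, a zinc finger factor under direct control of serum response factor, fell into a high and a low set of gates. Neutrophils (1510 and 1430), fibroblasts (1450 and 2150), luminal progenitor cells (1030 and 1080), Krt15-high epithelial cells (880 and 1110) and other epithelial cells (594 and 964) made up the high set. C1q macrophages held 297 and 234, and each dendritic, monocyte and lymphocyte gate held 120 or fewer. Egr3, its lower-abundance relative, was highest in neutrophils in both libraries, at 79.6 and 160, under each alternative tried. It was 2.93 and 2.8 in NK cells, where it rested on 4 and 3 UMIs.

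Nr4a1, which antigen receptor signals are known to induce in lymphocytes, was highest in B cells (670 and 618) and neutrophils (548 and 778). CD8 T cells held 166 and 185, the lowest after migratory dendritic cells (162 and 180). At 1000 UMIs per cell a Nr4a1 UMI was found in 48.8% and 45.2% of B cells and in 13.6% and 14.2% of CD8 T cells (83.5% and 80.3%, and 48.6% and 55.5%, without thinning). B cells had the lower median depth of these 2 gates, 4950 and 4577 UMIs. Ier2, a nuclear protein of the immediate early response, was 799 and 649 in gamma delta T cells, 770 and 775 in fibroblasts and 206 and 162 in migratory dendritic cells.

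Between tumour and normal adjacent tissue the 10 genes did not move together. A difference was counted where the levels differed enough (tumour at least 25% above or 20% below normal adjacent) and the gene had at least 20 UMIs over both libraries, which 148 gene by cell type values met. Of these, 27 (18.2%) were higher and 19 (12.8%) lower in tumour, and 102 lay in between. Over all genes the same rule gave 20.8% higher and 17.8% lower, and among values resting on at least 50 UMIs the 10 genes gave 18.6% higher and 12.4% lower beside 16% and 14% of all genes. The 10 genes are mostly abundant, genes of like abundance were not matched, and these shares are a description. Their median log2 ratio ran from -0.26 in migratory dendritic cells to 0.12 in CD8 T cells, beside -0.08 to 0.18 for all genes over the 15 gates.

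Single genes nevertheless kept 1 direction across gates. Jund was lower in tumour in 15 of 15 gates, with the interval below 1 in 12 and above 1 in 0. Its tumour level relative to normal adjacent ran from 0.684 (0.646 to 0.723) in CD8 T cells to 0.995 in fibroblasts, with a median of 0.854. In CD8 T cells that was 1930 CPM in normal adjacent and 1320 in tumour tissue. Of the 4652 genes measured in all 15 gates, 0.451% (21 genes, Jund among them) were lower in tumour in every gate. The gates share their libraries, so 15 gates are not 15 replicates. In 5 of the 7 alternatives 1 gate lay above 1: other epithelial cells with stricter gates (1.16), with at most 1 UMI of another lineage (1.21) and with at most 10% mitochondrial UMIs (1.01), type 2 dendritic cells after thinning (1.06), and fibroblasts, at a ratio that rounds to 1, with at least 500 genes per cell.

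Fosb went the opposite way. It was higher in tumour in 14 of 15 gates, with the interval above 1 in 11 and below 1 in 0. The exception was type 2 dendritic cells at 0.988, and B cells were near equal (407 and 407). Tumour over normal adjacent had a median of 1.23 and was highest in CD8 T cells, at 1.46 (1.29 to 1.65; 247 against 360 CPM). Of the same 4652 genes, 1.27% (59, Fosb among them) were higher in tumour in at least 14 gates. The limit of 14 gates was the count of Fosb itself. Jund and Fosb were the members with most gates in 1 direction, so both shares are descriptions. In CD8 T cells the Fosb ratio was 0.981 when cells with more than 1 UMI of another lineage were left out, which kept 109 and 46 cells.

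Nr4a1 was higher in tumour in 11 of 15 gates, with the interval above 1 in 9 and below 1 in gamma delta T cells alone (0.81). The share of all genes with 11 or more gates in 1 direction was not counted, here or for Atf3 below. In neutrophils Nr4a1 was 548 in normal adjacent and 778 in tumour tissue, 1.42-fold (1.32 to 1.53). In monocytes it was 213 and 313, 1.47-fold (1.23 to 1.76). Egr3 in neutrophils was 79.6 and 160, 2.01-fold higher in tumour (1.66 to 2.44), from 143 and 436 UMIs. The share of neutrophils with an Egr3 UMI at 1000 UMIs per cell was 6.86% (4.9 to 9.29) and 15.2% (13 to 17.5), against 17.4% and 27.4% without thinning. Egr3 had its interval above 1 in 5 of the 13 gates with enough UMIs and below 1 in 0.

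Atf3 was lower in tumour in 11 of 15 gates, as were Fos and Junb. The interval lay below 1 in 9 gates for Atf3, 7 for Fos and 8 for Junb, and above 1 in 1, 2 and 3. In C1q macrophages Atf3 was 673 in normal adjacent and 497 in tumour tissue. In neutrophils it was 898 and 694, a tumour level 0.773 times that of normal adjacent (0.723 to 0.827). Of the 4 other gates, B cells alone had the interval above 1, at 216 and 308 CPM (1.43-fold, 1.22 to 1.66). Type 1 dendritic cells (1.11), NK cells (1.01) and other epithelial cells (1.01) had intervals that included 1. In B cells, the 1 cell with most Atf3 UMIs gave 7.22% of them in normal adjacent and 12.7% in tumour tissue. With stricter gates 0 of the 10 genes, and so not Atf3, were counted as higher in B cells. Ier2 had its interval below 1 in 6 gates and above 1 in 0, and was lowest in B cells, 510 against 348 (0.683, 0.603 to 0.773).

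**Figure D2:**
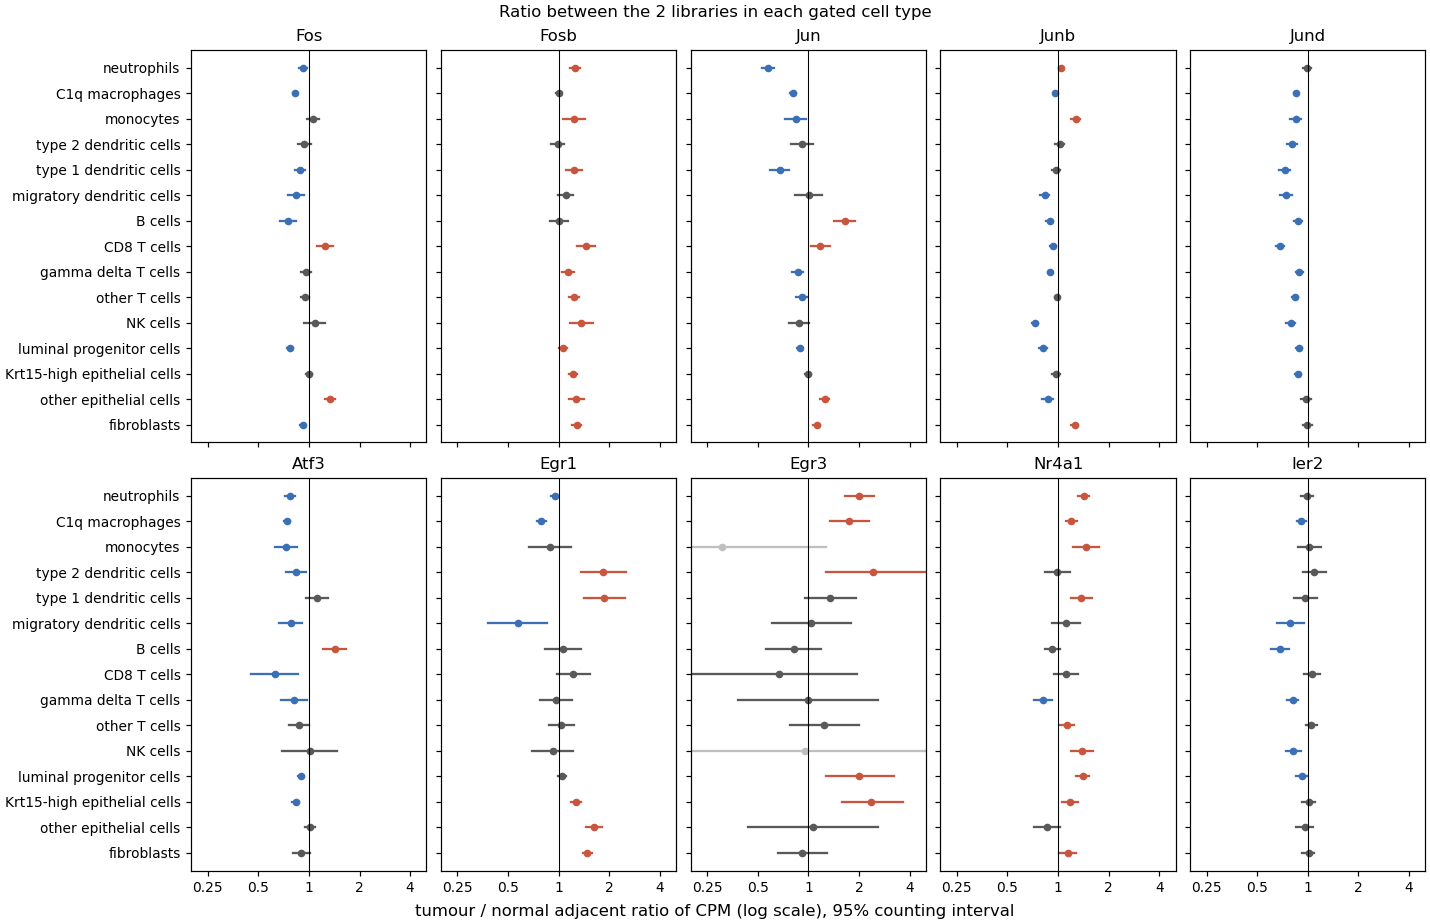
Tumour over normal adjacent ratio of CPM on a log2 axis (points) with 95% counting intervals (bars, clipped at the panel edges) for each gene (panels) in each gated cell type (rows). Red bars lie wholly above 1, blue bars wholly below 1, dark grey bars include 1 and light grey values rest on fewer than 20 UMIs; Jund points lie at or left of 1 and Fosb points at or right of it except type 2 dendritic cells (0.988).

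Neutrophils, the largest gate, showed the split within 1 cell type. Jun was 703 in normal adjacent and 406 in tumour tissue, a tumour level 0.578 times that of normal adjacent (0.533 to 0.627), while Fosb was 685 and 859 (interval of the ratio 1.17 to 1.34). Egr3 and Nr4a1 were higher, as given above, and Jund (1280 and 1260) and Ier2 (483 and 480) had intervals that included 1. The Jun ratio stayed between 0.561 and 0.713 under the 7 alternatives on cells and scaling. Markers of other cell types in this gate summed to 18.4 and 34.5 CPM for fibroblasts, 119 and 149 for epithelial cells, 421 and 453 for C1q macrophages, 119 and 61.2 for T cells and 6.13 and 11.4 for B cells, and their part in these values was not tested. The median depth of neutrophils was 2941 and 2267 UMIs.

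Fibroblasts held more Egr1 in tumour, 1450 against 2150 CPM (1.48-fold, 1.4 to 1.57), with Fosb at 1270 and 1630 and Junb at 2210 and 2770, while Fos was 5080 and 4660. The 1 cell with most Egr1 UMIs gave 5.78% and 2.96% of them. Their median depth was 8081 and 5464 UMIs, and after thinning Egr1 was 1190 and 1920. Other epithelial cells also held more Egr1 in tumour (594 and 964), with Fos at 1660 and 2200 and Jun at 2370 and 2970. There 4 of the 10 genes were counted as higher in tumour and 0 as lower, beside 38.7% and 14.5% of all genes. The median log2 ratio in that gate was 0.05 for the 10 genes and 0.18 for all genes. In that gate of 65 and 80 cells, 1 cell gave 23.5% of the normal adjacent Egr1 UMIs and 16.4% of the normal adjacent Fos UMIs.

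B cells showed Fos at 587 in normal adjacent and 440 in tumour tissue, and Jun at 233 and 384. Jun was thus 1.65-fold higher in tumour (1.43 to 1.9), but the ratio was 0.949 with stricter gates. The 1 cell with most Jun UMIs gave 6% of them in normal adjacent and 19.9% in tumour tissue. Epithelial markers in this gate summed to 124 and 87.1 CPM, fibroblast markers to 18.4 and 33.3, C1q macrophage markers to 184 and 206, neutrophil markers to 141 and 110 and T cell markers to 84.2 and 70.5, and their part in the Jun values was not tested.

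At the level of single cells, summed UMIs of the 10 genes at 1000 UMIs per cell varied widely inside each gate. In tumour neutrophils the median was 12 with a 10th to 90th percentile range of 5 to 23, and in normal adjacent fibroblasts it was 11 with a range of 1 to 28. Cells with none were 5.08% and 5.1% of fibroblasts but 0.361% and 0% of neutrophils. The 0% is 0 of 1022 cells, which allows at most 0.294%. At this depth 5 or more of the 10 genes were found in 72.4% and 75.5% of luminal progenitor cells, 49.3% and 56% of neutrophils and 8.77% and 11.6% of CD8 T cells.

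**Figure D3:**
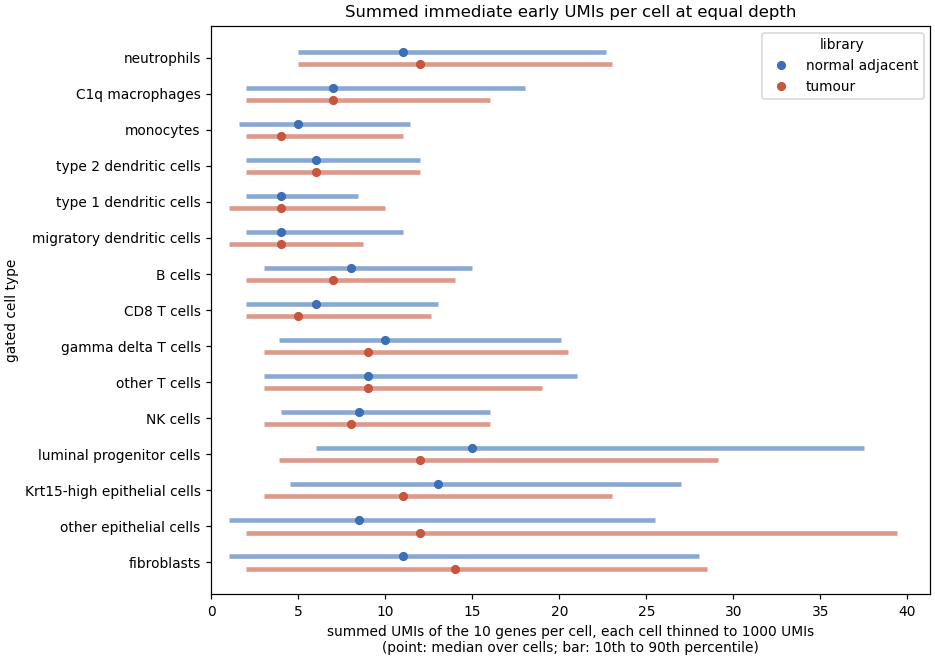
Summed UMIs of the 10 genes per cell after each cell was thinned to 1000 UMIs (horizontal axis), by gated cell type (rows) and library (blue normal adjacent, red tumour); points are medians over cells and bars the 10th to 90th percentiles. Medians lie between 4 and 15, and the bars of both libraries overlap in every cell type.

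The 25% of cells with the highest sum and the 25% with the lowest differed in depth in some gates. In fibroblasts the highest cells had a median of 11879 and 8355 UMIs before thinning and the lowest 3398 and 3142. In luminal progenitor cells it was the reverse, 8228 and 10420 against 22287 and 22419. In neutrophils the highest cells had 2946.5 and 2406 against 2968 and 2319. Heat shock genes, a second known mark of handling, were higher in the cells with the highest sum than in those with the lowest in 26 of 30 values of gate and library and lower in 4. They averaged 10.6 and 7.32 UMIs per 1000 in the highest cells of C1q macrophages and 5.82 and 5.71 in the lowest. Monocytes went the other way, with 6.81 and 6.52 in the highest and 7.14 and 7.45 in the lowest. Across the 30 values of cell type and library, the summed level of the 10 genes correlated with that of the heat shock genes at 0.19, with the mitochondrial share at 0.44 and with median depth at -0.22. The part of handling in these values was not tested, and no other gene list was set beside the 26 of 30 values.

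Pairs of the genes were found in the same thinned cell more often than the product of their shares in 770 of 943 pair, gate and library values, with a median of 1.1. Fos and Fosb exceeded it in 30 of 30 values, with a median of 1.23 and a range from 1.01 in normal adjacent neutrophils to 2.15. In tumour CD8 T cells 22 of 155 cells held both, where the product gave 11.6. Junb and Jund exceeded it in 20 of 30 values, with a median of 1.02 and a range from 0.925 to 1.14. No pair can exceed 1 divided by the larger of its 2 shares, and the part of this limit was not tested. No pairs of other genes found in like shares of cells were set beside these counts. Cells of 1 library are not replicates, and the part of cell state or cell quality inside a gate was not tested.

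**Figure D4:**
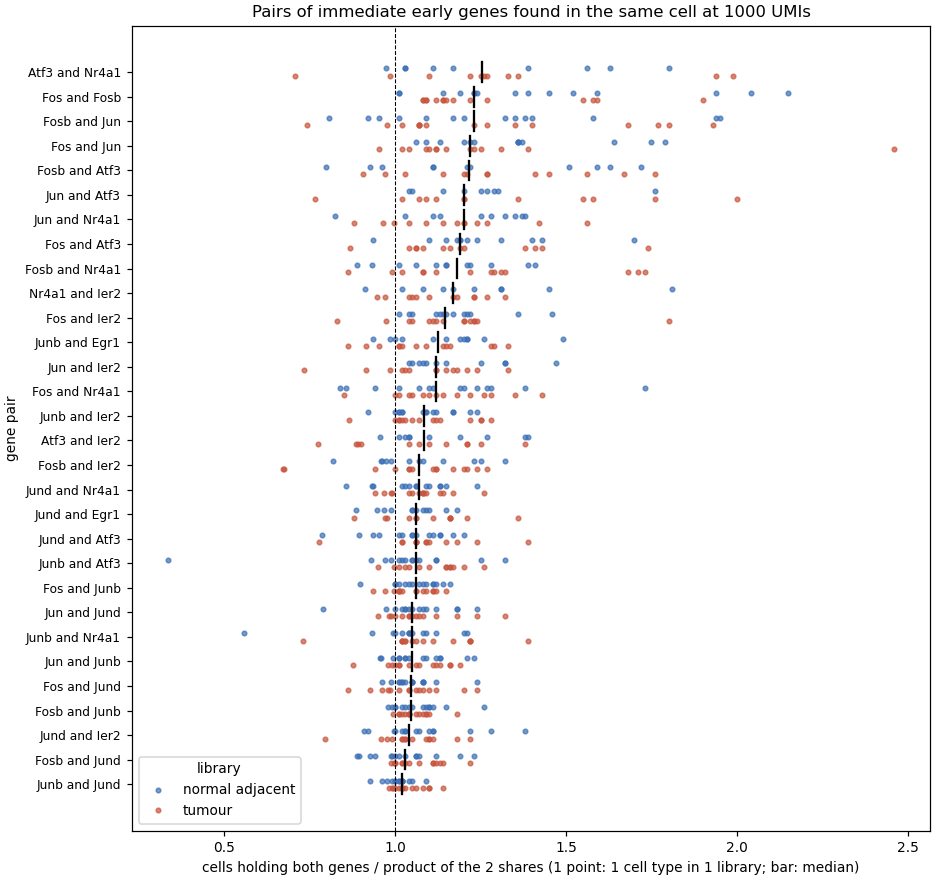
Number of cells holding both genes of a pair divided by the product of the 2 shares (horizontal axis) for pairs with at least 20 values (rows, sorted by median), at 1000 UMIs per cell; each point is 1 cell type in 1 library (blue normal adjacent, red tumour) and each bar the median. Fos and Fosb lie above 1 at every point, and Junb and Jund cluster around 1.02.

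The genes whose pattern over the 30 values was most like that of each member were sought among 9139 other genes. For Fos it was Tmed10 (Pearson 0.89), for Fosb the noncoding gene Gm26802 (0.89), for Jun Tvp23b (0.94), for Junb Jak1 (0.89), for Jund Rfk (0.83) and for Atf3 Smim14 (0.93). For Egr1 it was Eml1 (0.93), for Egr3 Ppp1r2 (0.78), for Nr4a1 Klf3 (0.76) and for Ier2 Rabac1 (0.9). Egr2, another Egr family gene, was the third for Egr3 (0.71). In the RefSeq gene table of GRCm38.p6, Gm26802 is the gene next to Fosb, with 0 genes between them, and Tmed10 is separated from Fos by 5 listed genes. Of the 30 pairs of a member and a gene given by this rule (the 3 most alike for each member, with Gm26802 given for both Fos and Fosb), only Tmed10 with Fos and Gm26802 with Fosb shared a chromosome. Gm26802 ran from 0 UMIs in normal adjacent monocytes and CD8 T cells to 65.8 and 89.7 CPM in fibroblasts.

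Other genes of the same response were summarised from 4 lists, over all gates in which a gene had enough UMIs. Of 428 values for 34 other immediate early and AP-1 genes, 16.8% were higher and 18.2% lower in tumour, near the shares over all genes. The most abundant were Btg1 and Btg2, which restrain proliferation, and Cebpb, a leucine zipper factor of myeloid cells that held 5960 and 7330 CPM in neutrophils. Of 370 values for 26 feedback inhibitors, 16.8% were higher and 22.7% lower, beside 20.8% and 17.8% over all genes. In neutrophils 8 of 24 were lower and 1 higher, beside 18.6% lower and 25% higher among all genes of that gate. Among the lower genes was Nfkbia, the inhibitor of NF-kappa B, at 4530 and 2670 (0.59, 0.571 to 0.609). Dusp1, a phosphatase that switches off MAP kinases, was 2200 and 2080 there. In other epithelial cells 13 of 24 were higher and 4 lower, beside 38.7% and 14.5% of all genes of that gate, where the median of all genes was itself 0.18 on the log2 scale. In monocytes 10 of 24 were higher and 3 lower, beside 1547 higher and 1539 lower of 7009 genes. In migratory dendritic cells 1 of 21 was higher and 9 lower, beside 1542 higher and 1294 lower of 6860 genes.

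Of 254 values for 18 upstream kinases and factors, 18.5% were higher and 13.8% lower. Of 204 values for 14 heat shock genes, 9.31% were higher and 24.5% lower. Over all genes the shares were 20.8% and 17.8%. In B cells 8 of 13 heat shock genes were lower and 0 higher, beside 1477 lower and 1546 higher of 7610 genes. In C1q macrophages 7 of 14 were lower and 0 higher, beside 10.9% lower and 15.4% higher among all genes of that gate. Dnaja1, a co-chaperone, was 601 and 463 there, while Hsp90ab1 was 1630 and 1610. Of the 10 immediate early genes in that gate, 2 were counted as lower in tumour, 1 as higher and 7 lay in between. Fos, Jun, Atf3 and Egr1 were at 0.83, 0.808, 0.739 and 0.787 times the normal adjacent level. Fosb was at 1, Nr4a1 at 1.2 and Egr3 at 1.75. Whether handling, depth (medians of 8776.5 and 10917 UMIs) or tissue gave these differences was not tested.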

How the data were processed

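Per the file headers, Cell Ranger 4.0.0 made the deposited matrices, whose values are raw UMI counts. The submitters' processing notes also name R 4.0.3 and Seurat 3.2.2, whose output was not used, and the human build GRCh38, although every gene is a mouse gene. For the mouse build and cell calling settings, none is given in the sources used here. The 10 genes and all lists were chosen with earlier results of these data known.

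Cells with at least 200 genes and at most 20% mitochondrial counts were kept. Gates required at least 3 UMIs of the gate's own markers and a minimum per 10000 UMIs (64 for neutrophils, 48 for C1q macrophages, 16 for T cells, 32 for fibroblasts). No doublet caller was run; cells over a limit for the markers of another lineage were left out of gates. Counts were summed per gate and library. Levels have exact Poisson intervals, ratios exact conditional binomial intervals and shares exact Clopper-Pearson intervals, at 95%, and a count of 0 was bounded by 3 counts. Shares were taken after thinning each cell to 1000 UMIs without replacement, and 0 to 31 shallower cells per gate and library were left out. Named genes were the 10 members, some of the most abundant genes of each list, and the 3 genes most alike to each member (genes with at least 200 UMIs and a highest level of at least 20 CPM, X, Y, mitochondrial, ribosomal and receptor segment genes left out). Interval and thinning code was tested on simulated data. The gate planned as basal cells was renamed after its markers were seen. The design's counts of members per gate are given as 1 total over gates. Python 3.11.15, NumPy 2.4.6, SciPy 1.17.1, pandas 2.3.3 and matplotlib 3.10.9 were used.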

Additional observations from a re-analysis of the deposited data

Results flagged for a closer look

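For 5 genes the 2 libraries differed past the size counted above in opposite directions in different gates, each with its counting interval clear of 1. The difference between gates was not tested, since each group is 1 library. As log2 ratios of tumour over normal adjacent, Jun was 0.72 in B cells and -0.79 in neutrophils, and Egr1 was 0.9 in type 1 dendritic cells and -0.81 in migratory dendritic cells. Atf3 was 0.51 in B cells and -0.67 in CD8 T cells, Junb 0.35 in monocytes and -0.46 in NK cells, and Fos 0.41 in other epithelial cells and -0.42 in B cells. Several rest on few UMIs: Egr1 had 69 and 203 UMIs in type 1 dendritic cells and 64 and 43 in migratory dendritic cells, and in type 1 dendritic cells 1 normal adjacent cell gave 31.9% of them. Jun in B cells, Atf3 in CD8 T cells and Junb in monocytes changed sign under an alternative given below, while Jun in neutrophils did not. Atf3 in B cells was no longer counted as higher with stricter gates.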

How the results depend on the processing

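No paired analysis was possible because each group is 1 library. Of 992 values of a gene in a gate under an alternative, 728 moved by less than their counting interval and 254 moved by more. The other 10 changed sign, and all 10 were values counted as different in the main setting. Sign changes of smaller differences, such as those given for Jund, are not among these 10. After thinning, log2 ratios turned to -0.1 for Junb in monocytes, 0.01 for Jun in type 1 dendritic cells, 0.31 for Ier2 in migratory dendritic cells, 0.12 for Atf3 in CD8 T cells and -0.17 for Egr1 in Krt15-high epithelial cells (-0.02 as the mean of each cell's own level). Stricter gates gave -0.07 for Jun in B cells and 0.25 for Egr3 in CD8 T cells. With at most 1 UMI of another lineage, which left 11 gates, Fosb in CD8 T cells was -0.03 and Egr3 in luminal progenitor cells -0.42.

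The share of values counted as lower in tumour rose to 19.4% after thinning, 19.9% with stricter gates and 19.8% with at most 1 UMI of another lineage, beside 23.2%, 19.1% and 21.9% of all gene values. At 1.5-fold, 6.08% were higher and 2.03% lower, beside 9.72% and 7.71%. Gates with a gene higher in tumour became 7 of 15 for Fos after thinning and as a mean over cells. Stricter gates gave 3 for Jun, 7 for Junb and 2 for Atf3. With at most 1 UMI of another lineage, 9 of 11 gates were higher for Fosb, 3 for Jun and 5 for Nr4a1. Jund had 1 such gate, where the main value is 0, under thinning, stricter gates, at most 1 UMI of another lineage, at most 10% mitochondrial counts and at least 500 genes. The causes were not tested. The gate with the highest level depended on these choices for Fosb, Junb, Jund, Egr1, Nr4a1 and Ier2 in both or 1 library, and small gates and 1 library per group limit every comparison.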

Other observations

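Fosb and its neighbouring noncoding gene Gm26802 had the most alike pattern found for Fosb among 9139 genes (Pearson 0.89 over 30 values), although Gm26802 was rare: 84 and 159 UMIs in fibroblasts, 48 and 66 in Krt15-high epithelial cells and 18 and 39 in neutrophils. The matrices hold no read positions, and whether the UMIs of these 2 neighbouring genes were kept apart was not tested. Egr2 was highest in fibroblasts, at 70.5 and 88 CPM, whereas Egr3 was highest in neutrophils.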
